A study of Homo sapiens with 2 samples.

Results

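The HMOX1-rich cells of the 4B4 library are the 10% of its cells with the highest share of HMOX1 among their transcripts. HMOX1 encodes haem oxygenase 1. A cell was kept when its barcode had at least 1000 detected genes and at most 20% of its UMIs (unique molecular identifiers, each standing for 1 captured RNA molecule) from mitochondrially encoded genes. Members were chosen by measured values, their HMOX1 UMIs divided by all UMIs of the cell. This gave 139 HMOX1-rich cells of 1385 kept 4B4 cells, and of 4787 kept cells in the series.

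The cells were HT1080, an established human fibrosarcoma line labelled wild type, grown as spheroids of 2000 cells embedded in collagen and collected after 72 hours of invasion. The treated sample (4B4) was cultured with 2 µg/ml of 4B4, an antibody that blocks β1 integrin, and the control sample was labelled control, with no further detail on whether it received another antibody. Each sample pooled about 50 spheroids in 500 µl of collagen and gave 1 library made from single cells with 10x Genomics 3′ chemistry. The series asks how HT1080 spheroids in collagen respond to β1 integrin inhibition. With 1 library per group no p-value or standard error was computed, cells are not replicates, and the antibody cannot be told apart from any other difference between the 2 samples.

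Haem oxygenase 1 opens the haem ring and releases iron, carbon monoxide and biliverdin. Its gene is held down by the repressor BACH1 and switched on by the transcription factor NRF2 (gene NFE2L2), which KEAP1 keeps unstable until oxidants or electrophiles disable it. NRF2 also drives genes of glutathione synthesis, thioredoxin and NADPH supply, and the ferritin chains that store the released iron, and HMOX1 is also known to respond to heavy metals, inflammation, hypoxia and amino acid shortage.

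The 139 HMOX1-rich cells held 6284 HMOX1 UMIs, 50.2% of all HMOX1 UMIs of the kept 4B4 cells, in 8.17% of their UMIs. Their level was 660 UMIs per 1000000 UMIs (UPM; 644 to 677, exact Poisson interval at 95%, counting error only), against 58.3 UPM (56.9 to 59.8) in the other 1246 kept 4B4 cells. Per cell the share ran from a lowest value of 285 UPM through a median of 547 UPM to a highest value of 3636 UPM, and HMOX1 UMIs per cell ran from 1 to 276 with a median of 35. Members therefore differed among themselves by more than 10-fold in the gene that chose them. Of the 139 cells, 13 had fewer than 10 HMOX1 UMIs and 4 had only 1. The last cell inside the cutoff had 39 HMOX1 UMIs of 136904, or 284.9 UPM, and the first outside had 11 of 38634, or 284.7 UPM. The share thus ran on through the cutoff without a gap. These values chose the cells and are given as a description. HMOX1 (ENSG00000100292) lies on chromosome 22 from 35380361 to 35394214 on the plus strand of GRCh38, with positions from GENCODE release 29.

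HMOX1 was not confined to the chosen cells. In the other kept 4B4 cells 25.2% had no HMOX1 UMI, against 70.5% in the control cells outside that library's own top 10%, at median depths of 69160.5 and 33383 UMIs. Those other 4B4 cells stood at 58.3 UPM, against 23.2 UPM over all 3402 kept control cells. Of the control cells, 32 of 3402 (0.941%, 0.644 to 1.33, Clopper-Pearson interval at 95%) reached the lowest HMOX1 share of the HMOX1-rich 4B4 cells, and these 32 held 24.7% of all control HMOX1 UMIs. They were uneven, with 3 to 205 HMOX1 UMIs per cell and 8 cells under 10. The highest control share was 16698 UPM, above the 3636 UPM of the highest 4B4 cell. The top 10% of control cells, 341 cells, began at 56.2 UPM, and 303 of the 341 had fewer than 10 HMOX1 UMIs, so that set rests largely on a few molecules per cell.

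**Figure D1:**
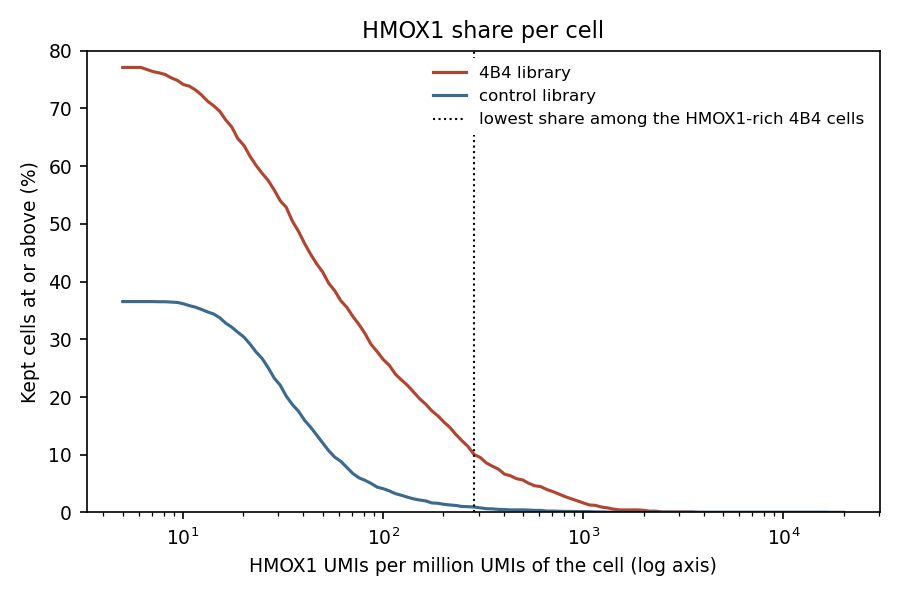
Share of kept cells (vertical axis, %) at or above each HMOX1 share (horizontal axis, HMOX1 UPM, UMIs scaled to the total of the cell, log axis), with 1 curve each for the 4B4 and control libraries; the dotted line marks the lowest share among the 139 HMOX1-rich 4B4 cells. The 4B4 curve crosses the line at 10% of cells and falls smoothly through it, while 0.941% of control cells lie at or above it.

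Each HMOX1-rich cell was set against 3 other kept 4B4 cells of nearest total UMI count, 417 cells in all, and HMOX1 was left out of every total used for other genes. Median depth was 61863 UMIs in the HMOX1-rich cells and 61866 UMIs in the depth-matched cells, with median detected genes of 7934 and 8042. The median mitochondrial share was 7.02% in HMOX1-rich cells against 8.03% in matched cells, and 15.1% of HMOX1-rich cells against 25.7% of matched cells exceeded 10%. MALAT1, a long noncoding RNA kept in the nucleus, had a median of 6208 UPM per cell in HMOX1-rich cells and 12369 UPM in matched cells, against 8283 UPM in all 1246 other kept 4B4 cells. The part of these differences in the results was not tested beyond the matchings on mitochondrial share and on MALAT1 given with the results. Scrublet marked 2 of the 1385 kept 4B4 cells and none of the HMOX1-rich cells as doublets, too few for a usable call, so no cell was removed. The libraries shared 2 barcodes, with 0 of them among the HMOX1-rich cells.

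Defining markers of macrophages and red cells were at or near 0. Of 14 macrophage and monocyte markers, a cell type known for high HMOX1, 1 was measured (at least 5 UPM in either set): CSF1R, at 8.73 UPM in HMOX1-rich cells and 7.09 UPM in matched cells. The 14 together reached 19.2 UPM in HMOX1-rich cells and 16.0 UPM in matched cells, and CD163, C1QA, C1QB, MRC1 and MARCO had 0 UMIs in the HMOX1-rich cells. Of 9 red cell and platelet markers only the fetal globin gene HBG2 was measured, at 13.2 and 13.0 UPM, and HBA1, HBA2, HBB, ALAS2 and PPBP had 0 UMIs in the HMOX1-rich cells. Epithelial markers summed to 39.7 UPM in HMOX1-rich cells and 36.3 UPM in matched cells, and endothelial markers to 35.3 and 48.1 UPM, of which PECAM1 made up 33.1 and 45.9 UPM. Genes typical of HT1080 were present: VIM (vimentin) at 2000.0 UPM in HMOX1-rich cells and 1466 UPM in matched cells, and FN1 (fibronectin) at 1100.0 and 1264 UPM.

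A gene was called when it reached 20 UPM in either set, differed at least 1.5-fold between the summed counts, and had a counting interval of the log2 ratio on 1 side of 0. Of 6788 genes tested, 57 (0.84%) were called higher and 151 (2.22%) lower in HMOX1-rich 4B4 cells. When comparison cells were matched on MALAT1 share as well as depth, 74 genes were higher and 60 lower, of which 41 and 45 were among the first sets. Without the cell that held most of each gene's UMIs, 29 genes were called higher, all among the 57, and 185 lower. Where 1 cell held over 20% of a gene's UMIs in the set where the gene was high, that share is given.

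Genes of glutathione synthesis and its cystine supply were among those called higher with HMOX1. GCLM encodes the modifier subunit of glutamate-cysteine ligase, the first and limiting step of glutathione synthesis. SLC7A11 is the exchanger that brings cystine into the cell, and SLC3A2 is its partner heavy chain. OSGIN1 is an oxidative stress gene known as an NRF2 target. Promoters of these genes are shown because NRF2 acts at a short motif, the antioxidant response element. In the RefSeq promoter table (GRCh38.p14), 4 of 7 genes looked up were matched (GCLM, SLC3A2, OSGIN1 and SQSTM1), while HMOX1, SLC7A11 and FTH1 were not matched. The 250 bases before each start were searched on both strands for the element's core, TGACNNNGC, which is held by 10.9% of 35116 such windows of all genes, and for the related AP-1 site, TGANTCA, held by 6.57%; the motifs can overlap. Capitals mark the match, and each sequence runs 5′ to 3′ on the gene's own strand.
GCLM, chr1:93909431-93909680, minus strand: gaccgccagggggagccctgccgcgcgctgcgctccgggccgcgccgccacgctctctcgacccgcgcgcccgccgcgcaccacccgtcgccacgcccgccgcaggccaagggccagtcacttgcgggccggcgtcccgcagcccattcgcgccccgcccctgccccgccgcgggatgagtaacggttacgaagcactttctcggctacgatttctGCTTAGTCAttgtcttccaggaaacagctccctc
SLC3A2, chr11:62881449-62881698, plus strand: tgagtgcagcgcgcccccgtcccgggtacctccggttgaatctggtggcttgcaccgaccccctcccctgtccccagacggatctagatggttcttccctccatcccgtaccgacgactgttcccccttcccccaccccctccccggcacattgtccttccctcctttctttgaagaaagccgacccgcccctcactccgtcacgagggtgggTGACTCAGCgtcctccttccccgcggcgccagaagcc
OSGIN1, chr16:83952990-83953239, plus strand: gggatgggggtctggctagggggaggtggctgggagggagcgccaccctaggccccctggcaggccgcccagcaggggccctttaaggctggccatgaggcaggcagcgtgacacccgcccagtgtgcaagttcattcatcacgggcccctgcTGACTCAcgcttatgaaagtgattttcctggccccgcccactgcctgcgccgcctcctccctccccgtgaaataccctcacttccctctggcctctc

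The GCLM window held the core on the opposite strand, read here as GCTTAGTCA, 34 bases before the start. The SLC3A2 window, 1 of 3 for that gene, held the core TGACTCAGC 37 bases before the start, and its first letters are also an AP-1 match. The OSGIN1 window held an AP-1 match, TGACTCA, 97 bases before the start and no core. The 3 windows of SQSTM1 held neither motif. A match describes letters only.

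GCLM lay between 0 and 644 UPM per cell in HMOX1-rich cells with a median of 91.2 UPM, and between 0 and 372 UPM in matched cells with a median of 32.3 UPM. The ranges overlapped, and 107 of 139 HMOX1-rich cells (77.0%) exceeded the matched median. Summed over cells GCLM was at 125 UPM in HMOX1-rich cells and 57.8 UPM in matched cells, a log2 ratio of 1.12 (1.01 to 1.23, conditional binomial interval at 95%). Thinned to 17000 UMIs per cell, 75.6% of HMOX1-rich cells (67.2 to 82.8) and 50.4% of matched cells (45.3 to 55.5) had a GCLM UMI, against 89.9% and 76.5% unthinned. The culture is 1 cell line, so no cell type that lacks GCLM gives a background share.

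SLC7A11 had a per-cell median of 13.1 UPM in HMOX1-rich cells and 0 UPM in matched cells, with highest cells at 687 and 466 UPM. It was detected in 54.7% of HMOX1-rich cells and 35.3% of matched cells, and in 33.9% and 19.4% after thinning. The summed level was 38.8 UPM in HMOX1-rich cells against 19.2 UPM in matched cells, a log2 ratio of 1.02 (0.82 to 1.21). SLC3A2 stood at 172 UPM in HMOX1-rich cells and 114 UPM in matched cells, with a log2 ratio of 0.59 (0.50 to 0.67), just past the 1.5-fold limit.

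Over the whole list of NRF2 glutathione, thioredoxin and NADPH genes, 26 of 33 members were measured, at a floor of 5 UPM used for lists. At that floor 1.43% of 11259 genes were called higher and 3.87% lower. In the list 4 were called higher (GCLM, SLC7A11, OSGIN1 and SLC3A2) and 0 lower, and 23 of 26 had a ratio above 0 (88.5%, against 41.2% of all genes measured). The list median was 0.25 on the log2 scale, against −0.05 for all genes measured. Lists with 0 calls also exceeded the 41.2%, such as heat shock chaperones (75%) and nuclear genes of oxidative phosphorylation (75.7%). Other lists fell below it, such as ERK output and feedback (23.5%) and interferon response (21.1%). OSGIN1 was scarce, at 6.41 UPM in HMOX1-rich cells and 2.98 UPM in matched cells, and its log2 ratio of 1.10 became −0.01 with each cell weighing the same.

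Most members of the list moved little. NQO1, a quinone reductase used as a standard NRF2 readout, was at 342 UPM in HMOX1-rich cells and 259 UPM in matched cells (log2 ratio 0.40). SRXN1 (sulfiredoxin, which repairs oxidised peroxiredoxins) had a ratio of 0.50, PRDX1 (a peroxiredoxin) 0.25, TXNRD1 (thioredoxin reductase) 0.21 and TXN (thioredoxin) 0.16. GCLC, the catalytic partner of GCLM, was at 17.7 UPM in HMOX1-rich cells and 16.9 UPM in matched cells, a log2 ratio of 0.06 with an interval of −0.20 to 0.32. The ratio of GCLM thus lay outside the interval of GCLC, with counts of 1193 and 1648 UMIs behind GCLM in the HMOX1-rich and matched cells. None of these other genes reached the 1.5-fold limit, and neither did ME1 (−0.06), an enzyme of NADPH supply.

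Iron storage separated the ferritin chains. FTH1, the heavy chain of ferritin, which oxidises iron for storage, lay between 0 and 34644 UPM per cell with a median of 8061 UPM in HMOX1-rich cells, and between 0 and 41446 UPM with a median of 4551 UPM in matched cells. Of the HMOX1-rich cells 82.0% exceeded the matched median. The summed levels were 9687 UPM in HMOX1-rich cells and 6044 UPM in matched cells, a log2 ratio of 0.68 (0.67 to 0.69). FTL, the light chain, was at 14656 UPM in HMOX1-rich cells and 13674 UPM in matched cells, a ratio of 0.10 (0.09 to 0.11), which was above 0 in 15 of 17 alternatives, −0.09 against all other kept cells and −0.12 under the stricter cell filter. Both chains have many processed pseudogenes, so their counts are uncertain where reads could be split among near-identical copies.

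Of 17 genes of iron storage, uptake and export, 13 were measured, FTH1 alone was called higher and 0 were lower, with a list median of 0.10. The transferrin receptor TFRC had a log2 ratio of 0.13 (−0.01 to 0.27), and NCOA4, the carrier that takes ferritin to the lysosome, −0.06 (−0.21 to 0.08). The iron exporter SLC40A1 was below the floor, at 1.47 UPM in HMOX1-rich cells and 0.842 UPM in matched cells.

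Haem genes beyond HMOX1 tilted upward without a call. Of 16 listed, 14 were measured, 0 were called in either direction and 13 had ratios above 0 (92.9%), with a median of 0.25. ALAS1, the enzyme that starts haem synthesis, was at 30.9 UPM in HMOX1-rich cells and 21.2 UPM in matched cells, with a ratio of 0.55 (0.34 to 0.75). BLVRB and BLVRA, which reduce biliverdin, had ratios of 0.22 and 0.12, the haem transporter SLC48A1 had 0.29, and HMOX2, the constitutive haem oxygenase, had 0.15 (0.01 to 0.29).

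Among the regulators 1 gene was called. SQSTM1 encodes p62, an autophagy receptor that binds KEAP1 and is itself a known NRF2 target, and it was called higher among 11 genes listed and 11 measured, with 0 lower. Per cell it ran from 0 to 4671 UPM with a median of 908 UPM in HMOX1-rich cells, and from 0 to 7258 UPM with a median of 589 UPM in matched cells. Summed, SQSTM1 was at 1069 UPM in HMOX1-rich cells and 700 UPM in matched cells, a log2 ratio of 0.61 (0.58 to 0.65). NFE2L2 itself was at 122 UPM in HMOX1-rich cells and 139 UPM in matched cells (−0.20, −0.29 to −0.10). BACH1, the repressor, was at 67.0 UPM in HMOX1-rich cells and 87.7 UPM in matched cells (−0.39, −0.52 to −0.26), and ATF3 was at 37.9 and 51.1 UPM (−0.43, −0.60 to −0.26), both short of the 1.5-fold limit. Over 17 alternatives the BACH1 ratio ran from −0.53 to −0.07, and in the control library it was −0.18. KEAP1 had a ratio of 0.17 (−0.04 to 0.37). The median of the list was −0.15.

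**Figure D2:**
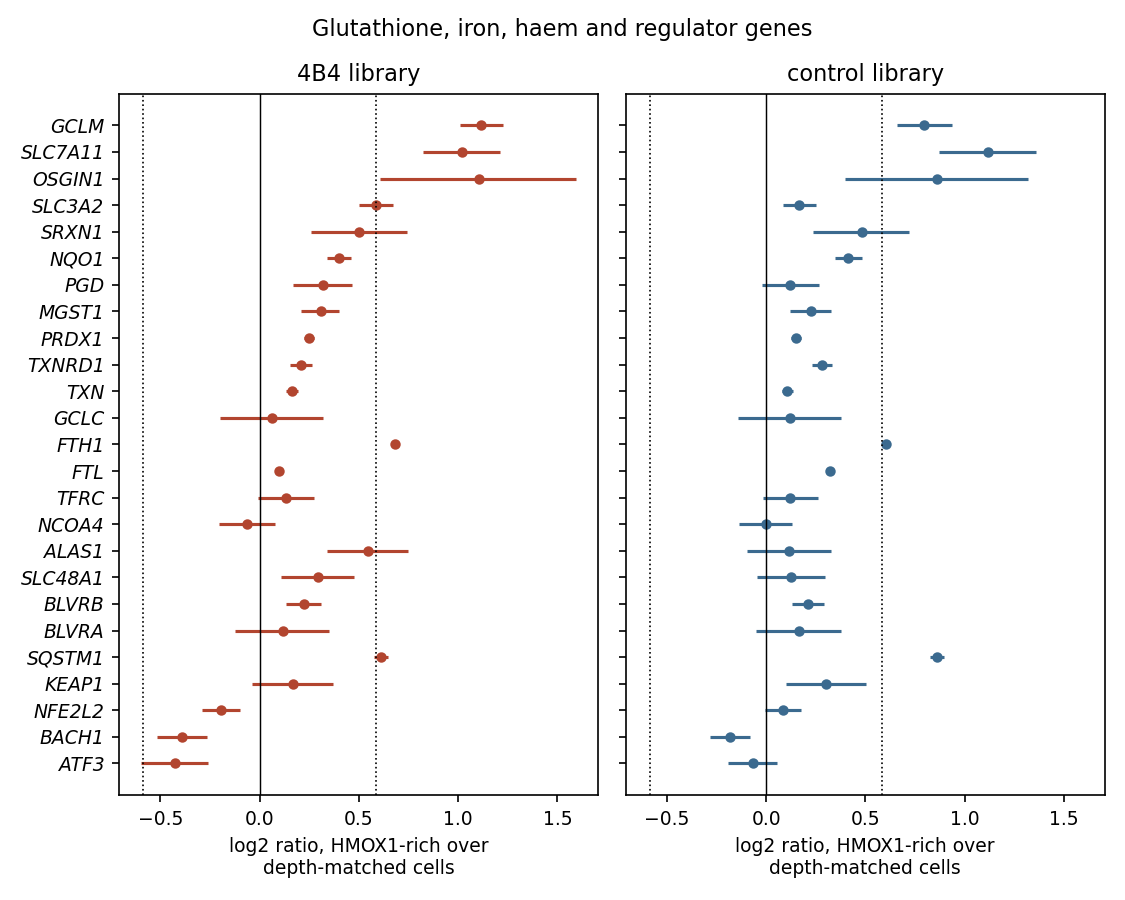
log2 ratio of summed counts in HMOX1-rich over depth-matched cells (horizontal axis) for genes of glutathione, iron, haem and their regulators (vertical axis), with the 4B4 library left and the control library right; points are ratios, bars are 95% counting intervals and dotted lines mark 1.5-fold. GCLM and SLC7A11 lie right of the dotted line in both panels with FTH1 and SQSTM1 at or past it. NFE2L2 and BACH1 lie left of 0 in the 4B4 panel, and BACH1 also in the control panel.

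Rank correlations with HMOX1 were taken within the 127 HMOX1-rich cells deep enough to be thinned to 17000 UMIs. They were 0.15 for FTH1, 0.12 for SLC7A11, 0.09 for GCLM and 0.07 for SQSTM1. The highest among the genes examined this way were 0.16 each, for the actin-binding gene TAGLN and for TXNRD1. FTL (−0.06) and SRXN1 (−0.03) lay below 0. Between themselves FTH1 and FTL had 0.61 and FTH1 and SQSTM1 had 0.38. All these cells come from 1 library at 1 depth, the counts of GCLM and SLC7A11 averaged 2.11 and 0.803 UMIs per thinned cell, and the coefficients are descriptions.

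**Figure D3:**
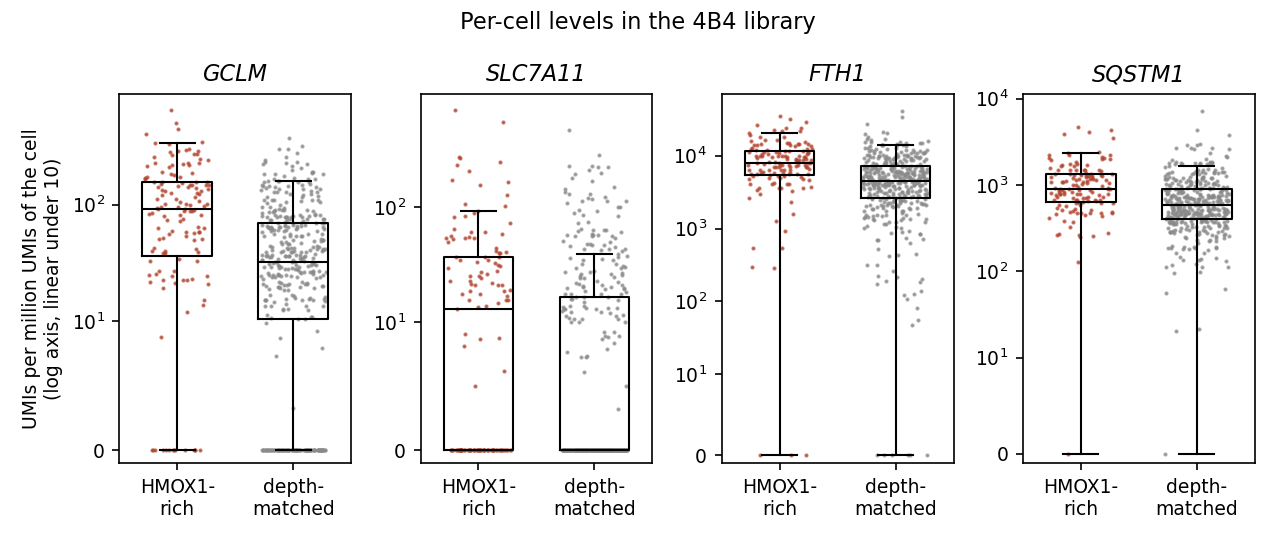
Per-cell level (vertical axis, UPM, UMIs scaled to the total of the cell, log axis that is linear under 10) of GCLM, SLC7A11, FTH1 and SQSTM1 in the 4B4 library, with the 139 HMOX1-rich cells left and the 417 depth-matched cells right; each point is a cell, boxes give quartiles and median and whiskers reach 1.5 times the quartile range. Medians were 91.2 against 32.3 UPM for GCLM, 13.1 against 0 for SLC7A11, 8061 against 4551 for FTH1 and 908 against 589 for SQSTM1, with wide overlap in each.

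Across all 1311 thinned 4B4 cells, HMOX1-rich or not, the genes whose counts ranked most like HMOX1 were FTH1 (rank correlation 0.35), SQSTM1 (0.30) and GCLM (0.23), of 10160 genes detected in at least 10% of the cells. They were followed by S100A10 (0.21), CEBPB (0.18), BRI3 (0.18), PRDX1 (0.18), ANXA2 (0.18), CYCS (0.18) and MGST3 (0.17). CEBPB is a transcription factor of stress and inflammation, and S100A10 and ANXA2 form a membrane complex that binds plasminogen. The most opposite were RANBP3L (−0.21), SLC5A3 (−0.18) and ITGA10 (−0.18). In 3099 thinned control cells FTH1 (0.18) and SQSTM1 (0.16) were again ranks 1 and 2 and GCLM (0.12) was rank 5. The cells of each set share a library and a depth, and most coefficients are weak.

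The relation was graded across the 610 kept 4B4 cells that lay between the lower and upper quartile of HMOX1-rich depth, 42418 to 88514 UMIs. The 142 cells without an HMOX1 UMI formed the first bin and the others were ranked into 5 bins of 93 or 94 cells. GCLM stood at 37.4, 37.6, 53.1, 64.3, 81.9 and 118 UPM from the bin without HMOX1 to the highest. FTH1 climbed over the same bins from 4370 to 9955 UPM and SQSTM1 from 517 to 1157 UPM, each rising at every step. SLC7A11 rose late, with 12.9, 8.94, 11.5, 20.6, 19.9 and 37.4 UPM, and TXNRD1 stayed between 316 and 364 UPM before 425 UPM in the top bin. FTL showed no such order in 4B4, at 10895 UPM in the first bin and 13050.0 UPM in the last with its highest level, 15400.0 UPM, in the middle. Across 1901 control cells binned the same way, FTL rose at every step, from 9779 to 15132 UPM. The 4B4 bins hold many of the HMOX1-rich cells and so repeat their data in part. They were made alike in depth only. MALAT1 stood at 19819, 16068, 14295, 12958, 12955 and 13806 UPM from the bin without HMOX1 to the highest. The part of this difference in the other trends was not tested.

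**Figure D4:**
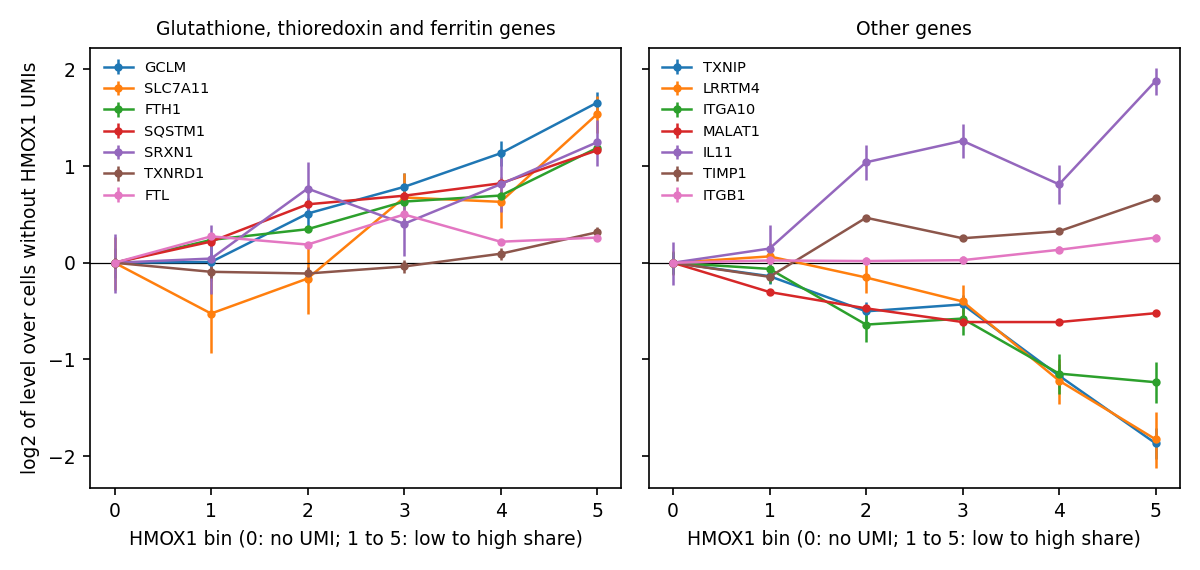
log2 of the level in each HMOX1 bin over the level in cells without an HMOX1 UMI (vertical axis) against HMOX1 bin (horizontal axis) for 610 kept 4B4 cells of like depth; bars are 95% counting intervals of the level in each bin. GCLM, FTH1 and SQSTM1 climb with HMOX1, while TXNIP falls to 54.9 UPM, LRRTM4 to 17.2 UPM and ITGA10 to 30.3 UPM in the top bin.

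HMOX1-rich cells had more HMOX1-rich neighbours than matched cells had, and most of their neighbours were other cells. With each cell joined to its 15 nearest neighbours over 2000 variable genes, HMOX1 left out, 16.9% of the neighbours of 127 HMOX1-rich cells were HMOX1-rich, against 10.8% of the neighbours of 381 matched cells and a share of 9.69% among all thinned 4B4 cells. The highest share for any HMOX1-rich cell was 46.7%, and 18 HMOX1-rich cells had no such neighbour.

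Lists of other stress programmes held few called genes. In the ATF4 and amino acid response list 20 of 23 were measured, with 2 higher, 1 lower and a median of 0.16. SLC7A11 and SLC3A2 were counted in the glutathione list and not in this one. The ATF4 list had 75% of its measured genes above 0, against 41.2% of all genes measured, of which 1.43% were called higher. Its higher genes were DDIT3 (CHOP, a stress transcription factor; 22.6 UPM in HMOX1-rich cells, 11.7 UPM in matched cells) and NUPR1 (a stress-induced chromatin protein; 34.6 and 22.3 UPM, log2 ratio 0.63), and its lower gene was CTH, which makes cysteine (−0.66). A single HMOX1-rich cell held 33.5% of DDIT3 UMIs, and without the top cell of each set its ratio of 0.94 became 0.44. GDF15, a secreted stress factor, was at 908 UPM in HMOX1-rich cells and 662 UPM in matched cells (0.46).

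Heat shock chaperones, 16 measured, had 0 calls and a median of 0.09. The unfolded protein response, 17 measured, had 0 higher and 1 lower, the sensor ERN1 (−0.59), which turned to 0.13 with each cell weighing the same. Among 5 metallothionein and zinc genes measured MT1E alone was called, at 28.6 UPM in HMOX1-rich cells and 17.7 UPM in matched cells (0.69), with 21.7% of its UMIs in 1 HMOX1-rich cell and a reversed sign under a stricter cell filter. The metallothionein MT2A had a ratio of 0.17. Of 25 hypoxia and glycolysis genes measured only HK2 (hexokinase 2, 0.65) was called higher and 0 were lower, with a median of 0.07. The p53 targets (20 measured) and lysosome and autophagy genes (34 measured) had 0 calls, with medians of 0.12 and 0.05, and the 37 nuclear genes of oxidative phosphorylation had 0 calls with a median of 0.03. Of 18 cholesterol genes measured INSIG1 (0.74) and DHCR7 (0.63) were higher and 0 lower, and of 13 lipid efflux and ferroptosis genes 0 were higher and APOC1, an apolipoprotein, was lower (−0.97).

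Several inflammatory and interferon genes had a large share of their UMIs in 1 cell. CXCL8, a neutrophil chemokine, was at 25.2 UPM in HMOX1-rich cells and 6.46 UPM in matched cells, with 62.1% of its UMIs in 1 HMOX1-rich cell. SAA1, an acute phase protein, stood at 32.7 and 5.61 UPM with 34.1% in 1 HMOX1-rich cell and 53.8% in 1 matched cell, and ISG15, an interferon-induced ubiquitin-like protein, at 137 and 56.2 UPM with 58.0% in 1 HMOX1-rich cell. Without the top cell of each set the log2 ratio of ISG15 was 0.13, against 1.29 with it. Of 15 inflammatory genes measured CXCL8, SAA1 and IL6 (30.4% of its UMIs in 1 HMOX1-rich cell) were called higher and S100A9 lower, and of 19 interferon genes ISG15 was higher and IFITM1 lower (−0.72), with list medians of 0.09 and −0.14.

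Genes of adhesion, the cytoskeleton and matrix turnover also differed. TIMP1, a secreted inhibitor of matrix metalloproteinases, was at 6264 UPM in HMOX1-rich cells and 4162 UPM in matched cells, a log2 ratio of 0.59 (0.58 to 0.60). Per-cell medians of TIMP1 were 3592 and 2372 UPM, and 61.9% of HMOX1-rich cells exceeded the matched median. PLAU, the urokinase plasminogen activator, was at 186 and 108 UPM (0.78, 0.69 to 0.86). With SERPINB2, an inhibitor of PLAU with 67.3% of its UMIs in 1 cell, these were the 3 higher of 29 measured proteases and inhibitors, with 0 lower and a list median of 0.04.

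A few contractile and TGF-β genes were called. TAGLN (transgelin, an actin-binding protein) was at 32.0 UPM in HMOX1-rich cells and 13.6 UPM in matched cells (1.23, 1.01 to 1.46), TPM1 (tropomyosin) at 469 and 292 UPM (0.68) and FHL2 at 72.3 and 47.2 UPM (0.62). Over the HMOX1 bins of 4B4 cells of like depth, TAGLN showed no steady rise. It was at 21.4 UPM without an HMOX1 UMI, then 13.2, 13.0, 12.3, 31.1 and 31.8 UPM. TMSB4X (thymosin β4, which binds free actin) was lower, at 77.4 UPM in HMOX1-rich cells and 117 UPM in matched cells (−0.60). These were the 3 higher and 1 lower of 25 measured SRF, MRTF and actin genes, whose median was 0.09. PMEPA1, a TGF-β-induced feedback inhibitor, was at 82.0 UPM in HMOX1-rich cells and 39.9 UPM in matched cells (1.04, 0.91 to 1.17), and TGFBI at 75.8 and 47.3 UPM (0.68); with TIMP1 they were the 3 higher of 20 measured TGF-β response genes, with 0 lower and a median of 0.11.

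IL11, a cytokine of the IL6 family, was at 64.3 UPM in HMOX1-rich cells and 23.2 UPM in matched cells, a log2 ratio of 1.47 (1.31 to 1.64), and 1 HMOX1-rich cell held 30.2% of the UMIs in that set. Without the top cell of each set the ratio was 1.03. When the top 10% of 4B4 cells by IL11 share were left out it was 0.20. That step removes cells by IL11 itself, so a smaller ratio was largely built in and no conclusion is drawn from it. Those cells made up 21 of 139 HMOX1-rich cells (15.1%, 9.60 to 22.2) and 39 of 417 matched cells (9.35%, 6.74 to 12.6). Of 17 measured ERK output and feedback genes IL11 was higher and the feedback inhibitors SPRY2 (−0.70) and SPRED1 (−0.63) and the ligand AREG (−0.65, with 33.0% of its matched UMIs in 1 matched cell) were lower, with a median of −0.22.

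Among 12 measured integrin subunits 0 were higher and 4 were lower, while 6 had ratios above 0 and the list median was 0.03. ITGA10, ITGA1 and ITGA11 are collagen-binding α subunits that pair with β1. ITGA10 was at 28.3 UPM in HMOX1-rich cells and 54.1 UPM in matched cells (−0.94), ITGA1 at 33.2 and 52.0 UPM (−0.65) and ITGA11 at 80.5 and 122 UPM (−0.61), and ITGB8, a β subunit, had a ratio of −0.98. With each cell weighing the same the ratio of ITGA10 was −0.34. ITGB1, whose product the antibody binds, was at 951 UPM in HMOX1-rich cells and 870 UPM in matched cells (0.13, 0.09 to 0.16), short of the limit. SPP1, which encodes the integrin ligand osteopontin, was at 187 and 162 UPM (0.21). Of 34 measured matrix and collagen genes TGFBI, COL12A1 and LOX (lysyl oxidase, 1.06) were higher and the thrombospondins THBS1 (−0.93) and THBS2 (−0.65) lower, with a median of −0.03. Of 20 measured YAP and TEAD targets GADD45B (0.75) was higher and RBMS3 (−0.78) and FJX1 (−0.60) were lower, with a median of −0.27, and of 14 mesenchymal factors SNAI2 (0.88) and CDH11 (0.60) were higher and TWIST1 (−0.70) lower.

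High ratios that met the naming rule, beyond those already given, belonged to ZNF114 (2.29), ABLIM3 (an actin-binding LIM protein, 1.10), LINC00520 (1.01), PHACTR1 (a regulator of actin and protein phosphatase 1, 0.84), AMIGO2 (0.83) and POPDC3 (0.74). Outside that rule and named after its values were seen, RSAD2, an interferon-induced enzyme, had the largest ratio of the 57 genes, 5.35, from 204 UMIs in HMOX1-rich cells, all in 1 cell, and 15 UMIs in matched cells.

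Under the same rule, which leaves out genes with clone names, the 151 lower genes were led by S100A9 (−2.67, with 3.78 UPM in HMOX1-rich cells and 24.1 UPM in matched cells), DMBT1 (−2.13), RANBP3L (−1.96), MIR4300HG (−1.88), LRRTM4 (−1.81), HS6ST3 (−1.73), LSAMP (−1.55), SGO1-AS1 (−1.42), SLC5A3 (−1.37), NADK2 (−1.34), MIR924HG (−1.20) and TXNIP (−1.17). TXNIP encodes a protein that binds thioredoxin and limits glucose uptake. Per cell it ran from 0 to 859 UPM with a median of 26.7 UPM in HMOX1-rich cells, and from 0 to 1416 UPM with a median of 75.6 UPM in matched cells, and 28.8% of HMOX1-rich cells exceeded the matched median. SLC5A3, the sodium and myo-inositol transporter, shares its locus with MRPS6, so its counts are uncertain; its medians were 31.4 and 92.6 UPM. RANBP3L was at 19.0 UPM in HMOX1-rich cells and 74.2 UPM in matched cells, but its ratio shrank to −0.64 with each cell weighing the same.

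Many of the lower genes were long or noncoding. Their median span on the genome was 173 kb, against 25.1 kb for the 57 higher genes and 38.6 kb for all genes tested, and 19.3% (13.3 to 26.6) were annotated as long noncoding RNAs, against 3.86% of all tested. MALAT1 itself was lower by less than the limit (log2 ratio −0.47), as was NEAT1, another nuclear noncoding RNA (−0.43). With comparison cells matched on MALAT1 share too, the 60 lower genes had a median span of 51.7 kb and 10.0% were long noncoding RNAs. Under that matching LRRTM4 had a ratio of −1.17, RANBP3L −2.16, SLC5A3 −1.15, TXNIP −1.11 and ITGA10 −0.76, and among the higher genes GCLM had 1.27, SLC7A11 1.35, FTH1 0.64 and SQSTM1 0.57.

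Most HMOX1-rich cells were called G1, and so were most matched cells. Of the 127 thinned HMOX1-rich cells, 115 (90.6%) were called G1, 4 (3.15%, 0.865 to 7.87) S and 8 (6.30%) G2M, against 87.1%, 6.56% (4.29 to 9.53) and 6.30% of 381 matched cells. Of 36 measured S phase genes 0 were higher and 5 lower (DTL, WDR76, POLD3, ATAD2 and BRIP1), with a median of −0.24, and of 46 measured G2 and mitosis genes 0 were called, with a median of −0.08. Neither median kept its sign throughout: the S phase median was below 0 in 14 of 17 alternatives and as high as 0.13, and the G2 and mitosis median in 13 of 17 and as high as 0.18. Among G1 cells alone GCLM kept a log2 ratio of 1.12 and FTH1 one of 0.62. Of 20 immediate early genes measured MYC (0.66) was higher and 0 were lower, with a median of −0.01.

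The same choice in the control library gave 19 of 6682 genes higher (0.284%) and 12 lower (0.18%) in 341 HMOX1-rich cells against 1023 depth-matched cells. GCLM was at 57.3 UPM in HMOX1-rich control cells and 33.0 UPM in matched control cells (0.80), SLC7A11 at 20.6 and 9.52 UPM (1.12), FTH1 at 5264 and 3469 UPM (0.60) and SQSTM1 at 850 and 468 UPM (0.86). Of the 57 genes higher in 4B4, 12 were higher in control too (21.1% of the 4B4 genes and 63.2% of the control genes). These were TINAGL1, GCLM, IL24, IGFBP7, SLC7A11, SQSTM1, SAA1, FTH1, TAGLN, DDIT3, NUPR1 and PMEPA1, where IL24 was named after its values were seen; 1 HMOX1-rich cell held 53.4% of the IL24 UMIs in 4B4. Of 42 genes higher in 4B4 and tested in control 36 had a control ratio above 0 (85.7%, against 47.6% of 6420 genes tested in both). Of the 151 lower genes 4 were lower in control (2.65% of the 4B4 genes and 33.3% of the control genes): ITGA10, POC1B, GALNT4 and AKAP6, where POC1B and GALNT4 overlap on the genome and may share reads. Of 126 lower genes tested in control 117 had a control ratio below 0 (92.9%, against 52.4% of all). The libraries share no cells, so these are separate comparisons, though of different depth and HMOX1 level.

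Whether ratios differed between the libraries was not tested. In the glutathione list 26 control genes were measured, 3 were higher (GCLM, SLC7A11 and OSGIN1), 0 lower and 25 above 0, with a median of 0.21. Of all genes measured in control 46.1% lay above 0, with a median of −0.01. At that 5 UPM floor 0.615% of 11375 control genes were called higher and 0.756% lower. FTL had a log2 ratio of 0.10 in 4B4 and 0.32 in control. TIMP1 (0.15), PLAU (−0.14), IL11 (0.33), TPM1 (0.48) and SLC3A2 (0.17) were not called in control, and neither were TXNIP (−0.21), SLC5A3 (−0.52), RANBP3L (−0.37) and LRRTM4 (−0.42). The median MALAT1 share was 6744 UPM in HMOX1-rich control cells and 7960 UPM in matched control cells.

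**Figure D5:**
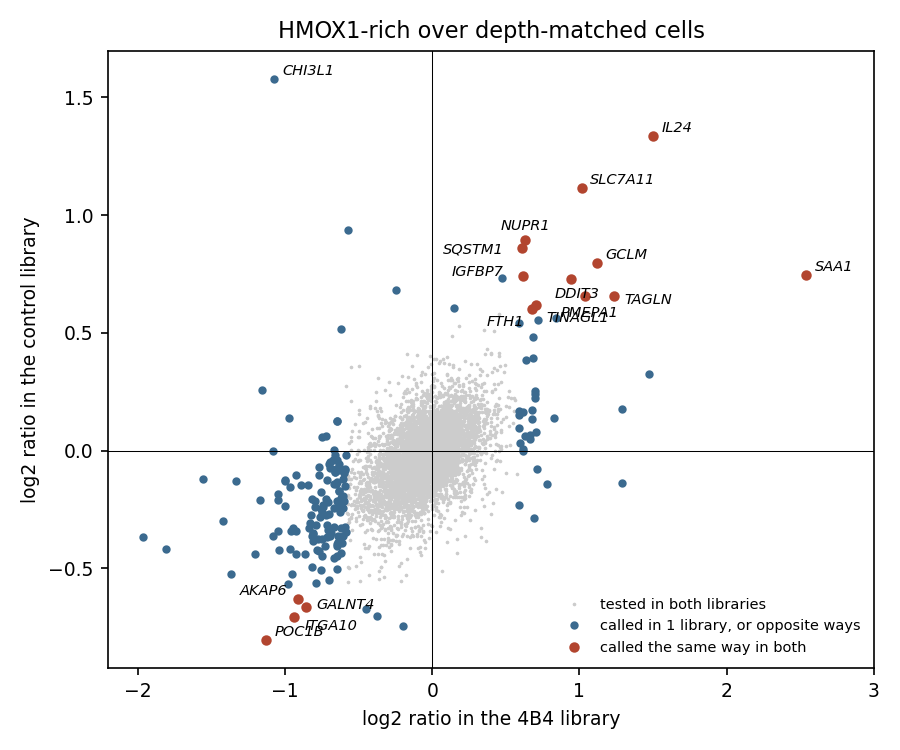
log2 ratio of HMOX1-rich over depth-matched cells in the 4B4 library (horizontal axis) and the control library (vertical axis) for 6420 genes tested in both; grey points are all genes, blue points were called in 1 library or in opposite directions and red points the same way in both. Red points hold 12 genes at upper right, GCLM, SLC7A11, FTH1 and SQSTM1 among them, and 4 at lower left, and CHI3L1 stands alone at upper left.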

How the data were processed

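Each library was deposited as a matrix of UMI counts, unnormalized, that the authors produced in Cell Ranger 7.1.0, per the file headers; the submitters' processing notes give GRCh38 and also name Seurat 5.0.1. For counting settings and annotation: not given in the sources used here. The 2 libraries list the same 36601 gene IDs, of which 10 symbols stand for more than 1 ID, and IDs were kept apart. Barcode and feature files hold names and no measurements. The members and the 32 gene lists were chosen with earlier results of these data known.

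Kept cells and the HMOX1-rich set follow the rule in the results. Comparison cells were the 3 nearest in log UMIs, taken without replacement from the deepest member on. Counts were summed over cells and divided by totals without HMOX1, with no pseudocount; per-cell levels were divided by all UMIs of the cell. Intervals (exact Poisson for sums, Clopper-Pearson for shares and for the conditional binomial share behind a ratio) are at 95% and cover counting error only. Kept cells held 116451080 UMIs in 4B4 and 127218114 in control, with medians of 68556 and 32914 per cell. For shares of cells with a UMI, phases and neighbours, cells were thinned to 17000 UMIs, which left out 12 HMOX1-rich and 36 matched 4B4 cells; neighbours used 30 principal components.

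Named genes were the 12 largest ratios in each direction among called genes with the same sign under every alternative and no cell over 20% of UMIs in the set where the gene was high, from each list up to 4 members of largest absolute ratio, a set of redox, ferritin, IL11, TIMP1, ITGB1, SPP1 and MALAT1 genes, and the 10 genes ranked most like HMOX1; others named complete a short count or were chosen after their values were seen. Some genes under this rule are not reported here. Alternatives changed the comparison cells, depth, weight of cells, cell filter, share taken, ranking, phase, floor and scaling (TMM factors from edgeR 4.0.16). Matching on MALAT1, members with at least 10 HMOX1 UMIs and leaving out IL11-rich cells were added after seeing the data. The steps were tested on simulated data, with known fold changes and all cells drawn from a shared profile with counting error only. Such data cannot show calls that rest on single cells. Tools were Python 3.11.15, scipy 1.17.1, scanpy 1.11.5 and R 4.3.3. Gene spans came from GENCODE release 29 by ID, which matched 94.6% of IDs.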

Additional observations from a re-analysis of the deposited data

Results flagged for a closer look

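CHI3L1, a secreted chitinase-like glycoprotein, was called in opposite directions in the 2 libraries. Its log2 ratio was −1.08 in HMOX1-rich over matched 4B4 cells, at 21.3 UPM and 45.0 UPM, and 1.58 in HMOX1-rich over matched control cells. The difference between the libraries was not tested, and there is 1 library per group. In control CHI3L1 was at 53.2 UPM in HMOX1-rich cells and 17.8 UPM in matched cells, and 1 HMOX1-rich control cell held 20.6% of its UMIs in that set. Without the top cell of each set the ratios of CHI3L1 were −1.29 in 4B4 and 1.33 in control, and among G1 cells −0.89 and 0.72.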

How the results depend on the processing

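Counts of calls varied with the processing. In 4B4 cells, 57 genes were higher and 151 lower. Thinning to 1 depth gave 94 and 438, equal weight for each cell 99 and 290, the stricter cell filter 86 and 84, the top 20% 23 and 47, ranking by HMOX1 UMIs alone 27 and 46, a floor of 50 UPM 28 and 65, and no floor with at least 10 UMIs 446 and 967. Without the top cell of each gene 29 were higher. Lower genes numbered 88 against all other kept cells, 88 with matching on mitochondrial share, 72 with no cell filter, 290 in the top 5% and 60 with matching on MALAT1. In control cells, 19 were higher and 12 lower. The top 5% gave 58 and 58, the top 20% 8 and 3, HMOX1-rich cells with at least 10 HMOX1 UMIs (38 cells) 201 and 272, a floor of 50 UPM 9 and 1, and no floor 427 and 388. Higher control genes numbered 7 when ranked by UMIs, 9 without the top cell and 11 without IL11-rich cells; lower ones numbered 21 with 1 nearest cell, 37 with matching on mitochondrial share, 39 thinned, 47 in G1 cells and 22 without the deepest 5%. Among called genes signs turned for ERN1 with each cell weighing the same (0.13), ISG15 in the top 5% (−1.34) and MT1E under the stricter filter (−0.11) and in the top 20% (−0.22), all in 4B4. Genes printed without a call at the 20 UPM floor turned too in 4B4: FTL (0.10) reached −0.12, SPP1 (0.21) −0.16, ATF3 (−0.43) 0.14, GDF15 (0.46) −0.02, MT2A (0.17) −0.04, and OSGIN1, below that floor, −0.01, as did several list medians near 0. Among the control ratios printed, IL11 (0.33) reached −0.07 and RANBP3L (−0.37) reached 0.03. Equal weight for each cell came with no counting interval, so its 99 and 290 genes in 4B4 passed on fold and floor alone. Otherwise the cause of these changes was not tested, beyond fewer or more genes tested at other floors. Of the named genes' ratios under alternatives, 2551 kept direction within the counting interval, 1100 moved past it with no call reversed and 4 reversed; of list medians, 876 and 110 kept or moved. No paired analysis was possible because each group has 1 library and no result comes from a test. Depth limits scarce genes: OSGIN1 had 61 UMIs in HMOX1-rich 4B4 cells.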

Other observations

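The barcodes left out by the filter also held HMOX1. In 4B4 these 374 barcodes, with a median of 82.7% mitochondrial UMIs, had HMOX1 at 24.4 UPM (19.2 to 30.5), and in control the 240 left-out barcodes had 17.3 UPM (10.6 to 26.7), with overlapping intervals. Few barcodes carried it: 348 of the 374 in 4B4 had 0 HMOX1 UMIs and 1 held 25 of the 76, while 228 of the 240 in control had 0 and the highest held 4 of 20.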
